A study of Homo sapiens with 6 samples.

Results

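Among 6 neuroblastoma cell lines profiled by RNA sequencing, 4 carry amplification of the MYCN oncogene, and these 4 did not share a culture medium. Kelly (spelled Kelley in the table) and CHP134 were grown in RPMI, and BE(2)-C and SK-N-DZ in DMEM, in each case with fetal calf serum. The comparison below sets the 2 RPMI lines against the 2 DMEM lines, and therefore covers 4 of 6 samples. By the study's methods the RPMI of both lines was also given L-glutamine, and the DMEM of SK-N-DZ, but not of BE(2)-C, was given non-essential amino acids, supplements that the sample labels leave out. Those methods also give a different supplier for BE(2)-C than for Kelly, CHP134 and SK-N-DZ. None of the 4 lines was transfected or treated for these libraries. The 2 MYCN-non-amplified lines, SK-N-AS and SY5Y, were grown in DMEM, that of SK-N-AS with non-essential amino acids, and serve only as a reading of where other DMEM-grown lines lie. Each line is 1 culture and 1 library, so medium, line identity and supplier cannot be told apart, and every test measures the spread between cell lines. With bulk RNA, fewer cells of a type and less RNA per cell cannot be told apart either.

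RPMI and DMEM feed cells differently. RPMI supplies asparagine, aspartate, glutamate, proline, glutathione and vitamins such as biotin and cobalamin, and is rich in inositol and phosphate but poor in calcium. DMEM without supplements lacks most non-essential amino acids but is richer in calcium and in several essential amino acids. Cells are known to answer a shortage of amino acids through the kinase GCN2 and the transcription factor ATF4, which induces amino acid synthesis, transporters and tRNA synthetases, and a shortage of sterols through the SREBP transcription factors. N-Myc itself drives the synthesis of nucleotides, polyamines and proteins, so that nutrient use is of particular interest in MYCN-amplified neuroblastoma.

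Values are FPKM (fragments scaled to transcript length and library size) per locus of the deposited table, of which 16223 carried a gene name. A locus was tested when at least 2 of the 4 lines had at least 1 FPKM, which left 11944 loci, 175 of them passing only through the RPMI lines and 99 only through the DMEM lines. Merged loci, in which the values of neighbouring genes cannot be separated, made up 2493 of the 11944. Some loci with a single gene name are also far wider than that gene, such as those of B3GALNT1, CDKN2A, ACAT2, GART, GSTM3 and ANKRD37. Other transcripts may add to their values. A locus below 1 FPKM in both lines of 1 medium, as many named below are, was kept only because it is higher in the other medium. The gap at such a locus is in part set by the filter. The FPKM summed to 777111 in CHP134, 847301 in Kelly, 999801 in BE(2)-C and 778472 in SK-N-DZ, and the read depth behind these sums is unknown. The merged locus of the spliceosomal RNAs RNU4-1 and RNU4-2 took 22.6% and 29.0% of the sum in CHP134 and Kelly against 38.0% and 41.0% in BE(2)-C and SK-N-DZ, and the median tested locus had 9.20 and 9.24 FPKM against 8.46 and 7.72. MYCN (chr2:16060521-16087129, hg19) stood at 505 FPKM in CHP134, 774 in Kelly, 571 in BE(2)-C and 184 in SK-N-DZ, and was 0.208 in the MYCN-non-amplified SK-N-AS and 0.921 in SY5Y. The MYCN levels of the RPMI and DMEM lines overlapped (log2 difference 0.95, SE 0.61, adjusted p = 0.992 with limma).

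No locus separated the media at the call used here, an adjusted p below 0.05 with an absolute log2 fold change above 1 in limma (0 of 11944 loci, 0.00%). At an unadjusted p below 0.05, 380 loci (3.18%) were higher and 85 (0.712%) lower in the RPMI lines. With 2 lines a side, the smallest p that an exact permutation test can give is 0.333. Both RPMI lines lay above both DMEM lines at 3084 loci (25.8%) and below them at 873 (7.31%). The typical locus leaned the same way, with a median log2 fold change of 0.22 and 67.4% of all loci positive. After quantile normalization, which gives the 4 lines the same distribution of values, the median was 0.00, and 1718 loci (14.4%) lay above and 1711 (14.3%) below, with 185 (1.55%) and 152 (1.27%) at an unadjusted p below 0.05. Median-ratio size factors likewise left 1733 (14.5%) above and 1719 (14.4%) below. The part of the RNU4 share in the shift was not tested, and fold changes are best read against 0.22. Spearman's rank correlation across these loci, which are not independent, was 0.856 between the RPMI lines, 0.838 between the DMEM lines and 0.835 to 0.880 between lines of different media.

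**Figure D1:**
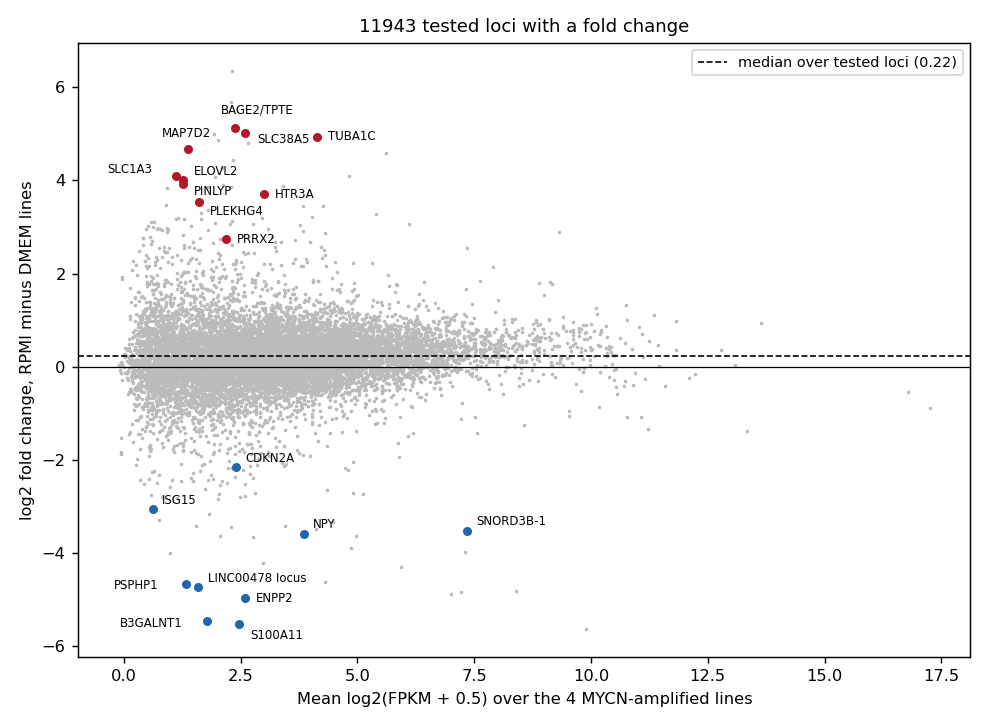
Log2 fold change of the RPMI lines over the DMEM lines (log2 FPKM + 0.5) against the mean level over the 4 lines, 1 point per locus, with the loci of smallest p in red (higher) and blue (lower). SPTLC1P2 is left out because both RPMI lines list it at 0. The cloud is centred on the dashed median of 0.22, and the named loci stand at its edges, most of them at low mean levels.

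The loci with the smallest p among those higher in RPMI lines were mostly near 0 in both DMEM lines. Of these, MAP7D2, SLC1A3, ELOVL2, PINLYP, PLEKHG4 and the locus of BAGE2 and TPTE passed the filter only through the RPMI lines. MAP7D2 (chrX:20024831-20135037), a microtubule-associated protein, was at 12.2 FPKM in CHP134 and 12.8 in Kelly against 0.0181 in BE(2)-C and 0.000701 in SK-N-DZ. Its log2 fold change was 4.67 (SE 0.50, adjusted p = 0.363), on a scale whose pseudocount of 0.5 understates such differences. TUBA1C, an alpha tubulin gene with near-identical copies whose reads may be shared, had 84.0 and 111 FPKM against 4.75 and 1.40. SK-N-AS, grown in DMEM, had 48.5 FPKM of TUBA1C and SY5Y 14.2, both between the groups.

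Of the same set, SLC38A5, SLC1A3 and ELOVL2 serve nutrient transport or lipid synthesis. SLC38A5 (chrX:48316920-48328644), an importer of glutamine, asparagine, histidine and serine, had 36.9 FPKM in CHP134 and 31.0 in Kelly against 0.0698 in BE(2)-C and 1.45 in SK-N-DZ (log2 fold change 5.03, SE 0.68, adjusted p = 0.428). SLC1A3 (chr5:36606457-36725297), the glutamate and aspartate importer known as EAAT1 in astrocytes, had 9.71 and 7.24 FPKM, was listed at 0 in BE(2)-C and stood at 0.0453 in SK-N-DZ (4.09, SE 0.54, adjusted p = 0.428). ELOVL2 (chr6:10980992-11078459), which elongates polyunsaturated fatty acids, had 8.53 and 9.73 FPKM against 0.191 and 0.0206 (4.00, SE 0.53, adjusted p = 0.428). The groups were far apart for all 3 genes, and the MYCN-non-amplified lines were at 0.0577 FPKM or less for both transporters, whereas SY5Y had 2.84 FPKM of ELOVL2.

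HTR3A, a subunit of the serotonin-gated channel, had 24.9 and 31.9 FPKM in CHP134 and Kelly against 1.06 and 2.61 in BE(2)-C and SK-N-DZ. The merged locus of BAGE2 and TPTE, which belongs to a family of near-identical copies, had 23.5 and 38.5 FPKM against 0.0319 and 0.953. Neither passed 2.00 FPKM in the MYCN-non-amplified lines. PLEKHG4, which holds a guanine nucleotide exchange factor domain, had 11.9 and 8.03 FPKM against 0.234 and 0.584, but the MYCN-non-amplified lines were like the RPMI lines, SK-N-AS at 10.3 and SY5Y at 7.10. PRRX2, a homeobox factor of mesenchyme, had 14.9 and 8.44 FPKM against 1.30 and 1.21, with SK-N-AS at 6.93. PINLYP completes this set with 6.92 and 11.4 FPKM against 0.0236 and 0.222.

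The promoters of 2 of these genes are shown because they hold the palindrome CACGTG, the E-box to which Myc proteins bind, and because all 4 lines have high MYCN while only the RPMI lines express the genes above 2 FPKM. Each run is the 250 bases before the start site in RefSeq (GRCh38.p14), read in the direction of the gene, with CACGTG in capitals.
SLC38A5 promoter, chrX:48470261-48470510, minus strand: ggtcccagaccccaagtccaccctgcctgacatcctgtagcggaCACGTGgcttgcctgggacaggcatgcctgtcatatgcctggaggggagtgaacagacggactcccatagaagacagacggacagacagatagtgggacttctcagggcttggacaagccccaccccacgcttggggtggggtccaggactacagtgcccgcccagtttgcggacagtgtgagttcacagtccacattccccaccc
MAP7D2 promoter (the first of the listed starts), chrX:20116908-20117157, minus strand: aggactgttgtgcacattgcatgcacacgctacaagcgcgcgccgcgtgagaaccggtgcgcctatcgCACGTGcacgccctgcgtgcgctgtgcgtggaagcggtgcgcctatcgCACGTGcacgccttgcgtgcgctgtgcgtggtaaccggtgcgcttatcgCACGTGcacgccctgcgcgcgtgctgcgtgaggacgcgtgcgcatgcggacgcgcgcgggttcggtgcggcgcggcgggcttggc
The SLC38A5 window holds 1 copy and the MAP7D2 window 3 copies, the latter within a repeated unit. Windows of SLC1A3, ELOVL2, SLC2A1 and PSAT1 and of another MAP7D2 start were searched too. Each of them holds 0 copies, so the 2 windows shown were picked for their match. Of 35116 RefSeq promoters of this length, 2228 (6.34%) hold CACGTG, which reads the same on both strands. A second motif, TGATGNAA (N for any base), was also searched in these windows and had 1 match, in a window of SLC1A3. It is held by 1104 (3.14%) of the RefSeq promoters. A match is a description of the letters only, and binding was not measured.

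Among loci lower in the RPMI lines, the smallest adjusted p was 0.124, for SPTLC1P2 (chr6:23856926-23857046), a processed pseudogene of SPTLC1, the gene of a serine palmitoyltransferase subunit. SPTLC1P2 was listed at 0 in CHP134 and Kelly and stood at 76.1 FPKM in BE(2)-C and 154 in SK-N-DZ, with 189 for SK-N-AS and 32.0 for SY5Y. No fold is given against lines listed at 0. SPTLC1P2 and, of the loci below, PSPHP1, B3GALNT1, S100A11, LINC00478 and ISG15 passed the filter only through the DMEM lines. SPTLC1 itself, chosen after its values were seen, overlapped between the media (16.4 and 8.70 against 17.3 and 11.3 FPKM), and reads shared between gene and pseudogene make the locus uncertain.

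A similar split was seen at PSPHP1 (chr7:55832331-55841922), an unprocessed pseudogene of the serine synthesis gene PSPH. PSPHP1 was listed at 0 in CHP134, stood at 0.00439 FPKM in Kelly, and ranged from 10.7 to 13.6 in all 4 DMEM-grown lines. Its parent PSPH, also chosen after its values were seen, had 22.3 and 31.4 FPKM in CHP134 and Kelly against 33.7 and 17.5 in BE(2)-C and SK-N-DZ, which overlap. B3GALNT1 (chr3:160801671-160971320), the enzyme that makes the glycolipid globoside, had 0.0120 and 0.0151 FPKM against 21.0 and 23.7 (log2 fold change -5.47, SE 0.47, adjusted p = 0.285). SY5Y was at 0.0326 FPKM for B3GALNT1 although it grew in DMEM, and SK-N-AS at 3.15. S100A11, a calcium-binding protein, was listed at 0 in CHP134, had 0.823 FPKM in Kelly, and had 55.0 and 25.0 in BE(2)-C and SK-N-DZ.

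The long noncoding locus LINC00478 (chr21:17442842-17983020), which hosts the genes of miR-99a, let-7c and miR-125b-2, was at 0.00411 FPKM in CHP134 and 0.161 in Kelly. BE(2)-C had 16.7 FPKM, SK-N-DZ 13.3, SK-N-AS 19.0 and SY5Y 18.2 (log2 fold change -4.74, SE 0.51, adjusted p = 0.363). All 4 DMEM-grown lines were thus within a narrow range, far above both RPMI lines. The 5′ arm miRNAs of the cluster are shown, from RefSeq (GRCh38.p14), with the seed (bases 2 to 8) in capitals. They share no seed, and let-7c carries the seed of the let-7 family, whose known targets include MYCN. These libraries measure the host transcript and not the mature miRNAs.
miR-99a-5p: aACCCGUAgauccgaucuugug
let-7c-5p: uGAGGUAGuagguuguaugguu
miR-125b-5p: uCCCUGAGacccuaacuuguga

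NPY, the neuropeptide of sympathetic neurons, had 3.95 FPKM in CHP134 and 3.38 in Kelly against 71.2 in BE(2)-C and 34.5 in SK-N-DZ, and the MYCN-non-amplified lines had 241 (SK-N-AS) and 546 (SY5Y). ENPP2, the enzyme that makes lysophosphatidic acid, had 1.59 and 0.0604 FPKM against 41.9 and 26.9, with 1.03 for SK-N-AS and 0.172 for SY5Y. NPY thus placed the MYCN-non-amplified lines with the DMEM lines, and ENPP2 placed them with the RPMI lines. SNORD3B-1, 1 of several near-identical copies of the U3 small nucleolar RNA, had 39.0 and 57.4 FPKM against 439 and 684. The interferon-induced modifier ISG15 was listed at 0 in CHP134 and had 0.0707 FPKM in Kelly against 5.10 and 3.07 in BE(2)-C and SK-N-DZ. CDKN2A, the tumour suppressor locus of p16 and p14ARF, had 2.25 and 1.77 FPKM against 13.0 and 8.70, with a log2 fold change of -2.16 (SE 0.46, adjusted p = 0.992). This locus (chr9:21802542-22121096) is far wider than the gene itself (chr9:21967751-21995300). Other transcripts may therefore add to its value, which cannot be read as p16 or p14ARF alone.

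Several of the largest fold changes rested on CHP134. NNAT, an imprinted membrane proteolipid of developing neurons, had 491 FPKM in CHP134 and 3.60 in Kelly against 0.0960 in BE(2)-C, with SK-N-DZ listed at 0 (log2 fold change 6.36, and 2.91 to 9.81 with 1 line left out in turn). IGSF1, in a merged locus, had 257 FPKM in CHP134 and 4.37 in Kelly, and RTN1, also merged, had 78.9 and 5.37, while neither passed 0.358 FPKM in BE(2)-C or SK-N-DZ. In these 3 loci the gap between the RPMI lines was wide, and Kelly was nearer in FPKM to the DMEM lines than to CHP134.

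**Figure D2:**
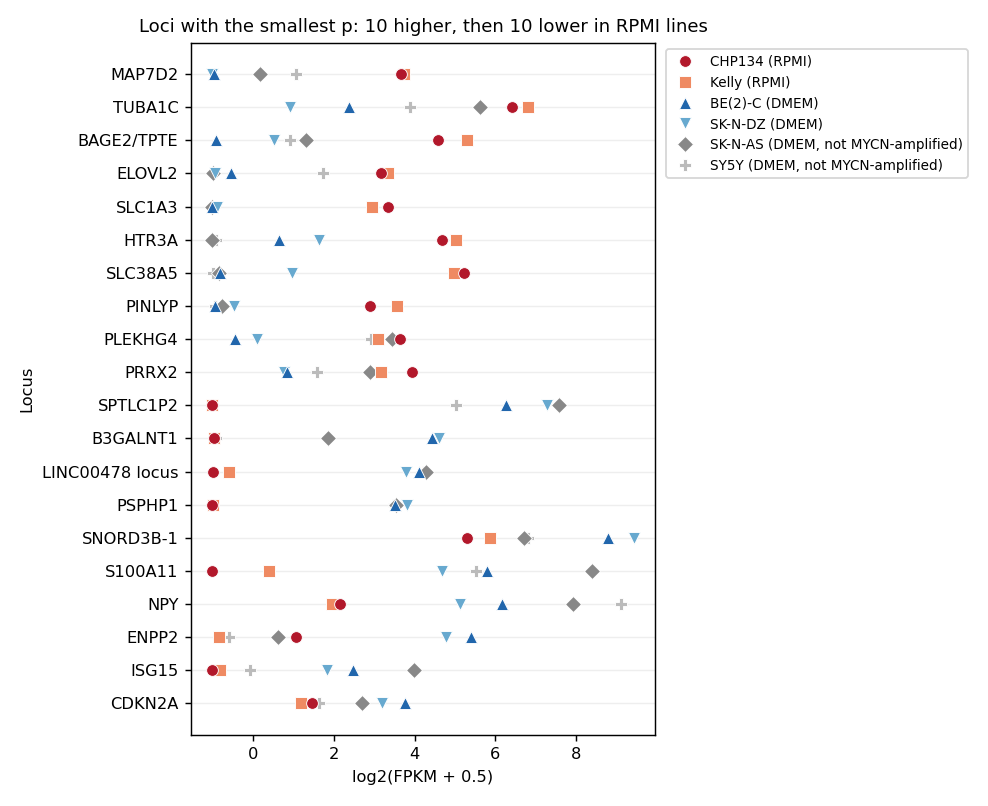
Level of the 10 loci with the smallest p among those higher, then the 10 among those lower, in the RPMI lines, as log2(FPKM + 0.5) with 1 symbol per line, so that -1 stands for 0 FPKM, and close values overlap. The red and orange RPMI symbols sit apart from the blue DMEM symbols in every row, and the grey MYCN-non-amplified lines fall on either side, for example with the DMEM lines at SLC38A5 and with the RPMI lines at PLEKHG4.

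Serine and amino acid synthesis was compared through 26 tested loci, with a median log2 fold change of 0.10 (0.22 for all loci). Of these loci 2 (7.69%) lay higher and 3 (11.5%) lower without overlap, against 25.8% and 7.31% of all loci. PSAT1, the aminotransferase of serine synthesis, had 50.2 FPKM in CHP134 and 33.7 in Kelly against 101 in BE(2)-C and 75.1 in SK-N-DZ. Both RPMI lines were lower (log2 fold change -1.07, SE 0.37, adjusted p = 0.992). SHMT2, which converts serine to glycine in mitochondria, had 62.4 and 74.5 FPKM against 92.4 and 135. PHGDH, the first enzyme of the pathway, did not separate the media, because CHP134 had 24.8 FPKM and Kelly 110.0 against 127 and 71.3. ASNS, asparagine synthetase, was level across all 4 lines, at 27.6 and 30.2 FPKM against 27.8 and 24.4, with a log2 difference of 0.15 (SE 0.33) as deposited and -0.13 after quantile normalization. Going the other way, the proline catabolic enzyme ALDH4A1, in a merged locus, had 9.39 and 9.24 FPKM against 4.88 and 4.15.

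Amino acid transporters gave 29 tested loci with a median of 0.04, of which 6 (20.7%) lay higher and 1 (3.45%) lower, both below the shares of all loci (25.8% and 7.31%). The members named next are therefore single genes and do not stand for the list. Besides SLC38A5 and SLC1A3, SLC6A15, a carrier of branched-chain amino acids and proline, had 118 and 44.0 FPKM against 35.8 and 31.9. SLC38A2, a glutamine and alanine importer known to be induced when amino acids run short, was the lower one, at 51.9 and 34.6 FPKM against 68.0 and 80.7 (log2 fold change -0.80, SE 0.36). The cystine transporter SLC7A11 overlapped, at 0.465 and 2.20 FPKM against 2.09 and 2.12.

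The ATF4 and amino acid response list showed a gap between the 2 DMEM lines. Between media its 28 tested loci had a median log2 fold change of -0.01, with 4 loci (14.3%) higher and 2 (7.14%) lower without overlap, against 25.8% and 7.31% of all loci. Within the DMEM pair, BE(2)-C was above SK-N-DZ at 26 of the 28 loci, against 52.9% of all tested loci, with a median log2 difference of 0.88 against 0.06. BE(2)-C was the highest of the 4 lines at 20 loci (71.4%, against 20.7% of all loci), and SK-N-DZ the lowest at 17 (60.7%, against 33.6%). With size factors the count was 25 of 28. The gap was not particular to this list. BE(2)-C was also above SK-N-DZ at 20 of 26 loci of fatty acid synthesis and desaturation (76.9%, median 0.79). For zinc, copper and metallothionein the count was 15 of 19 (78.9%, 0.61), and for the unfolded protein response 17 of 24 (70.8%, 0.42). Amino acid transporters did not share it, at 13 of 29 (44.8%, -0.05). This reading of the ATF4 list was chosen after the values were seen and compares 2 libraries, with no replicate and no test.

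Members with a gap included stress regulators, transporters and tRNA synthetases, and the members named here were likewise chosen after their values were seen. DDIT4, an inhibitor of mTORC1, had 34.1 FPKM in CHP134, 17.0 in Kelly, 86.0 in BE(2)-C and 6.12 in SK-N-DZ. CHAC1, which degrades glutathione, had 0.516, 1.80, 17.1 and 1.08 FPKM in the same order, so that BE(2)-C alone was high. STC2, a secreted stress glycoprotein, had 2.37 and 1.08 FPKM in the RPMI lines and 10.5 and 0.0998 in BE(2)-C and SK-N-DZ. ATF4 itself stood at 171 FPKM in BE(2)-C and 94.3 in SK-N-DZ, against 70.6 and 119 in CHP134 and Kelly. The large amino acid carrier SLC7A5 had 27.8 and 8.42 FPKM in BE(2)-C and SK-N-DZ, and the seryl-tRNA synthetase SARS 190.1 and 90.7. VLDLR and SLC7A11 were the exceptions, at 1.37 against 1.87 and 2.09 against 2.12 FPKM. Other members hardly differed, such as MTHFD2 at 78.7 against 78.4 FPKM. Among tRNA synthetases, MARS had 59.0 against 55.3 and CARS, in a merged locus, 17.7 against 16.8.

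Non-essential amino acids were given to SK-N-DZ and not to BE(2)-C, by the study's methods, and likewise to SK-N-AS and not to SY5Y. In that second pair SK-N-AS was above SY5Y at 18 of the 28 loci (64.3%, against 53.5% of all loci), with a median log2 difference of 0.16 against 0.05. SK-N-AS had 0.884 FPKM of CHAC1 and SY5Y 1.14, and for DDIT4 the values were 46.9 and 20.9. These MYCN-non-amplified lines also differ in identity and supplier, with 1 library each, so the pair cannot show the part of the supplement. Within the RPMI pair, CHP134 was above Kelly at 14 of 28 loci with a median difference of -0.01. The part of the supplement in the gap between BE(2)-C and SK-N-DZ was not tested, and supplement, line and supplier cannot be told apart.

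**Figure D3:**
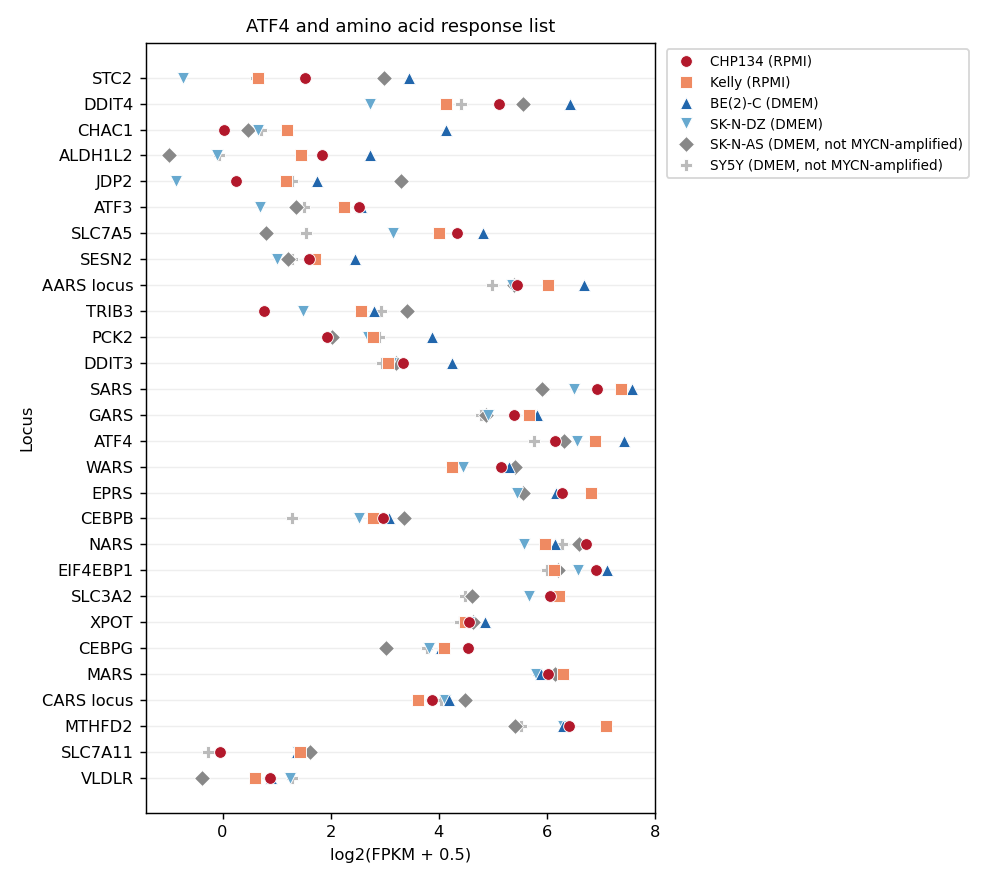
The 28 tested loci of the ATF4 and amino acid response list as log2(FPKM + 0.5) in each of the 6 lines, ordered by the difference between BE(2)-C and SK-N-DZ. Dark blue triangles (BE(2)-C) lie right of the light blue ones (SK-N-DZ) in all but the bottom rows of SLC7A11 and VLDLR, and the red and orange RPMI lines often lie between them.

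Cholesterol synthesis and uptake had the lowest median of the 20 metabolism and nutrient lists apart from the mitochondrially encoded loci. Of 31 tested loci, 7 (22.6%) lay lower in both RPMI lines, against 7.31% of all loci, and 3 (9.68%) higher, against 25.8%, with a median of -0.14. After quantile normalization 14 lay lower and 1 higher, with a median of -0.38. ACAT2, which condenses acetyl-CoA, had 49.0 and 49.4 FPKM against 53.7 and 119, in a locus wider than the gene. HSD17B7 had 8.15 and 8.50 FPKM against 11.3 and 15.6. TM7SF2, a late enzyme of the pathway in a locus merged with VPS51, was higher, at 54.0 and 60.7 against 29.6 and 44.1 FPKM. The median of the list without BE(2)-C was 0.23, so that its sign rested on that line.

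Fatty acid genes showed a few wide gaps within lists whose medians were ordinary. For synthesis and desaturation the median over 26 loci was 0.21, with 6 (23.1%) higher and 4 (15.4%) lower, against 25.8% and 7.31% of all loci. For oxidation and ketone use the median was 0.00 over 29 loci. DGAT2, in a merged locus, makes triglyceride and had 4.00 and 8.49 FPKM against 0.810 and 0.381 (log2 fold change 2.57, SE 0.61, adjusted p = 0.992). GPAM, the first acyltransferase of glycerolipid synthesis, was lower, at 4.92 and 28.6 FPKM against 75.9 and 41.2. CPT1C, a brain form of carnitine palmitoyltransferase, had 5.84 and 7.46 FPKM against 1.07 and 1.75, although SK-N-AS had 19.2 and SY5Y 16.9, more than either group. Stearoyl-CoA desaturase SCD, also merged, overlapped at 119 and 84.6 against 116 and 102 FPKM.

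Outside the lists, 3 lipid genes are given that were chosen because their values were higher in the RPMI lines, so that their common direction shows nothing about lipid genes in general. PLIN2, which coats lipid droplets, had 31.0 and 16.9 FPKM in CHP134 and Kelly against 1.74 and 0.0217 in BE(2)-C and SK-N-DZ (log2 fold change 4.44, SE 0.81, adjusted p = 0.992). Lipoprotein lipase LPL had 6.78 and 5.75 FPKM against 0.0120 and 0.574, and UGT8, which makes galactosylceramide, had 7.11 and 5.04 against 0.0196 and 0.487 in a locus merged with MIR577. SK-N-AS had 19.0 FPKM of PLIN2 and SY5Y 29.1, the range of the RPMI lines, whereas LPL was listed at 0 in SK-N-AS and had 0.0538 in SY5Y.

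Glucose uptake and glycolysis gave a median of 0.30 over 36 loci, or 0.01 after quantile normalization, with 7 (19.4%) higher and 2 (5.56%) lower against 25.8% and 7.31% of all loci. With 1 line left out in turn the median ranged from 0.08 to 0.43. SLC2A1, the glucose carrier GLUT1, had 19.2 and 33.6 FPKM in CHP134 and Kelly against 11.8 and 10.7 in BE(2)-C and SK-N-DZ (log2 fold change 1.14, SE 0.42, adjusted p = 0.992). PFKP, a phosphofructokinase, had 45.3 and 32.3 FPKM against 19.0 and 13.6. Both were thus higher in each RPMI line. MPC1, which carries pyruvate into mitochondria, was lower, at 17.7 and 13.5 FPKM against 49.5 and 23.0. TXNIP, known to be induced by glucose, ranged from 8.84 to 33.8 within the RPMI lines alone and overlapped the DMEM lines.

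A single line stood out at LDHA, lactate dehydrogenase, and PDK1, both chosen after their values were seen. LDHA, in a merged locus, had 609.7 FPKM in CHP134, 254 in Kelly, 382 in SK-N-DZ and only 11.3 in BE(2)-C. PDK1, the kinase that holds back pyruvate entry into the citric acid cycle, had 0.995 FPKM in BE(2)-C against 7.18 to 23.5 in the other 3 lines. LDHA and PDK1 are both known targets of the hypoxia factor HIF-1, and a part of HIF-1 was not tested. The hypoxia response list had mean log2 levels, centred on the 4 lines, of 0.00 in CHP134 and 0.49 in Kelly. The values were 0.02 in BE(2)-C and -0.51 in SK-N-DZ, the lowest line. Within the DMEM pair, BE(2)-C was above SK-N-DZ at 12 of the list's 19 loci (63.2%, against 52.9% of all loci). The median log2 difference of that pair was 0.74 against 0.06. Between media the list had a median of 0.54 over 19 loci, and 0.24 after quantile normalization. The loci without overlap were 4 higher (21.1%) and 0 lower, against 25.8% and 7.31% of all loci. AK4, an adenylate kinase of mitochondria, had 3.76 and 3.23 FPKM against 0.169 and 0.412, and ANKRD37 3.98 and 3.54 against 1.07 and 1.28. CA12 and the merged locus of HILPDA completed the 4, and the list's median with 1 line left out in turn ranged from 0.04 to 0.79.

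The mitochondrial genome encodes subunits of the respiratory chain, and 10 of its 13 listed genes fell in 3 merged loci. These loci had lower values in both RPMI lines, with a median log2 fold change of -1.42. The locus of MT-CYB had 37.9 and 51.6 FPKM in CHP134 and Kelly against 212 and 67.5 in BE(2)-C and SK-N-DZ, and that of MT-ND6 44.4 and 36.1 against 157 and 80.7. The widest locus, which holds MT-CO1, had 1162 and 1949 FPKM against 7219 and 2018, so that Kelly was close to SK-N-DZ. Mitochondrially encoded RNA took 0.160% and 0.240% of the FPKM sum against 0.759% and 0.278%, and without BE(2)-C the median was -0.60. Nuclear genes of the citric acid cycle and pyruvate entry were near the background, with a median of 0.24 over 30 loci against 0.22 for all, 7 of them (23.3%) higher and 1 (3.33%) lower against 25.8% and 7.31%. SDHB, an iron-sulfur subunit of succinate dehydrogenase, had 121 and 97.4 FPKM against 48.3 and 58.1, and PDHB of pyruvate dehydrogenase 45.7 and 76.2 against 26.1 and 32.0. ATP5G1, which encodes subunit c of the ATP synthase and was chosen after its values were seen, had 394 and 351 FPKM against 126 and 85.6 (log2 fold change 1.84, SE 0.34, adjusted p = 0.992).

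Metal and mineral genes were mixed. Iron uptake and storage had a median of 0.18 over 14 loci, with 4 (28.6%) higher and 1 (7.14%) lower without overlap. Zinc, copper and metallothionein genes had 0.05 over 19 loci, with 4 (21.1%) higher and 4 (21.1%) lower. The shares of all loci were 25.8% and 7.31%. In iron handling, the transferrin receptor TFRC had 150.2 and 101 FPKM in CHP134 and Kelly against 65.4 and 75.2 in BE(2)-C and SK-N-DZ, a log2 fold change of 0.81 (SE 0.35) as deposited and 0.46 after quantile normalization. TFR2 was also higher, at 3.42 and 1.55 FPKM against 0.546 and 0.150. The ferritin heavy chain FTH1 overlapped at 53.4 and 48.1 against 36.3 and 60.0, while the light chain FTL had 272 and 516 against 219 and 229. The zinc importer SLC39A4 had 10.2 and 6.74 FPKM against 2.40 and 2.32, the copper transporter ATP7A was lower at 1.57 and 3.39 against 5.34 and 6.25, and metallothionein MT2A overlapped, from 0.558 to 7.87 FPKM over the 4 lines.

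Phosphate and calcium genes gave 8 higher and 3 lower of 23 loci (34.8% and 13.0%, against 25.8% and 7.31% of all loci), and 4 and 4 after quantile normalization. ALPL, the tissue-nonspecific alkaline phosphatase, had 3.44 and 5.48 FPKM against 0.309 and 0.00112 (log2 fold change 2.93, SE 0.63, adjusted p = 0.992). ENPP1, which makes pyrophosphate, had 1.92 and 1.68 FPKM against 0.0411 and 0.0550 and was listed at 0 in SK-N-AS. ALPL and ENPP1, which degrade and make pyrophosphate, were thus both higher in each RPMI line. ORAI2, a subunit of store-operated calcium channels, was lower at 4.37 and 3.74 FPKM against 16.0 and 8.35, with SK-N-AS at 14.9 and SY5Y at 19.5. The phosphate importer SLC20A1 overlapped at 31.1 and 15.2 against 16.2 and 14.2 FPKM. ISYNA1, which makes inositol, had 10.6 and 14.0 FPKM against 6.23 and 8.66, a log2 fold change of 0.69 (SE 0.41).

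**Figure D4:**
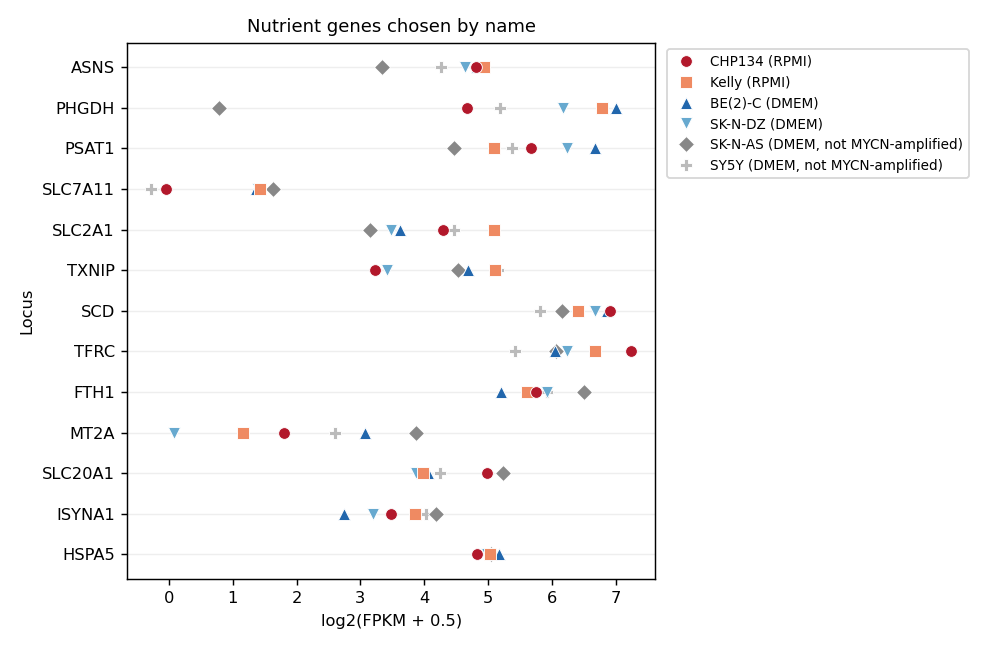
Levels of 13 nutrient genes chosen by name, as log2(FPKM + 0.5), 1 symbol per line. PSAT1, SLC2A1, TFRC and ISYNA1 have both RPMI symbols on 1 side of both DMEM symbols, whereas the other genes, such as ASNS, PHGDH and TXNIP, overlap.

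Polyamine and nucleotide genes, which N-Myc is known to drive, had list medians above that of the typical locus. Of 18 loci of arginine, urea and polyamine genes, 8 (44.4%) lay higher and 1 (5.56%) lower, against 25.8% and 7.31% of all loci, with a median of 0.34. After quantile normalization 4 lay higher and 2 lower, and the median was 0.04. ODC1, the first enzyme of polyamine synthesis and a classical Myc target, had 308 and 357 FPKM in CHP134 and Kelly against 167 and 212 in BE(2)-C and SK-N-DZ. The spermidine synthase SRM had 25.4 and 16.7 against 12.8 and 9.51 FPKM. For purine and pyrimidine synthesis the median over 33 loci was 0.36, or 0.09 after quantile normalization. With 1 line left out in turn it ranged from 0.09 to 0.49. Of these loci 8 (24.2%) lay higher and 2 (6.06%) lower, near the shares of all loci, and 3 and 2 after quantile normalization. Single members were CTPS1, at 44.8 and 36.6 against 18.4 and 23.9 FPKM, and GART, at 80.2 and 60.6 against 42.4 and 36.5. DPYD, which degrades pyrimidines, was lower at 2.14 and 4.58 against 20.1 and 6.85.

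Glutathione and NRF2 genes were near the background, 9 (23.1%) higher and 4 (10.3%) lower of 39 loci against 25.8% and 7.31% of all loci. The aldo-keto reductase AKR1C1 was listed at 0 in CHP134 and had 0.815 FPKM in Kelly against 3.17 and 6.00 in BE(2)-C and SK-N-DZ, and AKR1C3 followed it at 0 and 0.141 against 6.26 and 1.04. These are related genes whose reads may be shared. GSTM3, a glutathione transferase, had 54.3 and 71.1 FPKM against 37.0 and 16.5, and MGST1, a membrane-bound one in a merged locus, 1.69 and 8.45 against 0.00501 and 0.775. Vitamin and cofactor genes (8 higher and 3 lower of 44), nutrient sensing and AMPK (9 and 2 of 36), the unfolded protein response (7 and 2 of 24) and the pentose phosphate pathway (1 and 1 of 9) had medians of 0.20, 0.21, 0.18 and 0.04. Their shares were 18.2%, 25.0%, 29.2% and 11.1% higher, and 6.82%, 5.56%, 8.33% and 11.1% lower, against the same 25.8% and 7.31%. The chaperone HSPA5 was level at 28.0 and 32.3 against 35.6 and 31.0 FPKM.

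**Figure D5:**
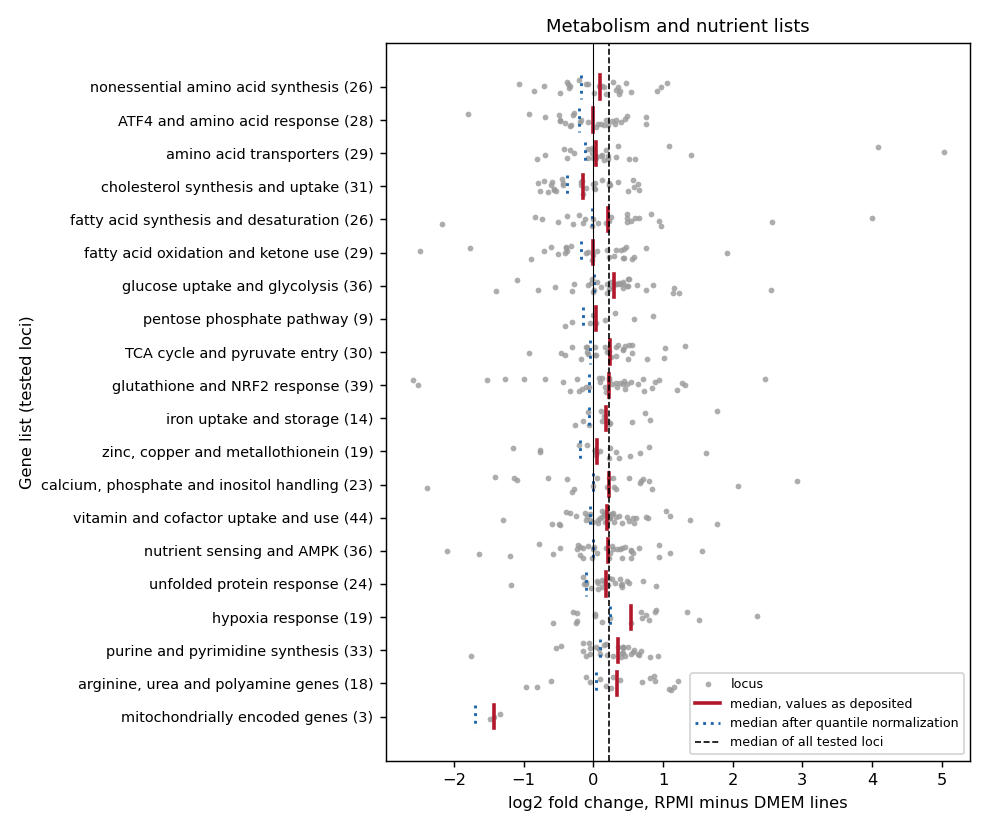
Log2 fold change (RPMI over DMEM lines) of every tested locus in the 20 metabolism and nutrient lists, with the number of tested loci in parentheses. Red bars are list medians on the deposited values, blue dotted bars the medians after quantile normalization, and the dashed line the median of all loci at 0.22. Most medians lie close to the dashed line, with the mitochondrially encoded loci at -1.42 apart on the left.

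SK-N-AS and SY5Y, which grew in DMEM and did not enter the comparison, also differ from the 4 lines in MYCN status, so that their position is given as a description. Of the 3084 loci higher in the RPMI lines, both lay nearer to the mean of the DMEM lines at 1208 (39.2%) and nearer to the RPMI lines at 1065 (34.5%). Of the 873 lower loci, both lay nearer to the DMEM lines at 370 (42.4%) and nearer to the RPMI lines at 242 (27.7%). After quantile normalization the shares were 40.3% and 33.5% for higher loci, and 34.9% and 36.8% for lower ones. With size factors they were 40.4% and 33.4%, and 38.0% and 33.2%. The share nearer to the DMEM lines was thus the larger one in each case but the lower loci after quantile normalization. No test of these shares was run.

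The lines also differed in markers of neuroblastoma state. Adrenergic markers had a median of -0.09 over 19 loci, with 0 higher and 1 (5.26%) lower against 25.8% and 7.31% of all loci, and spread widely within the RPMI pair, CHP134 being above Kelly at 4 of 19 with a median log2 difference of -2.20. Dopamine beta-hydroxylase DBH was at 0.0960 FPKM in CHP134 and 122 in Kelly, against 11.2 and 24.9 in BE(2)-C and SK-N-DZ. HAND2, a transcription factor of the lineage, was present in all 4 lines at 65.8 to 145 FPKM. Of the 15 mesenchymal markers 14 had a locus and 3 passed the filter, 2 with a positive and 1 with a negative log2 fold change. Their median was 0.55, and ranged from -0.15 to 1.33 with 1 line left out in turn. Only the intermediate filament gene VIM lay without overlap, at 114 and 17.4 FPKM against 8.79 and 7.40, higher in both RPMI lines. Of 10 Schwann and glial markers 5 had a locus, and of 11 blood and endothelial markers 2. The Schwann marker S100B did not exceed 1.40 FPKM and the leukocyte marker PTPRC did not exceed 0.0658 in these lines. The part of the neuroblastoma state in the differences between media was not tested.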

How the data were processed

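RNA of 6 neuroblastoma cell lines was depleted of ribosomal RNA and sequenced without poly-A selection. The authors aligned reads to hg19 with STAR and named edgeR for their own test. The values deposited by the authors were read as FPKM per locus, since the table names no unit, holds no whole counts and has unequal library sums. The table has 19170 loci with assembly-type identifiers, 1 line of it was emptied for this work, and 2947 unnamed loci were not tested. The library kit does not mark strand, so antisense partners cannot be told apart. The filter kept loci that reached 1 FPKM in 2 or more of the 4 MYCN-amplified lines. On log2(FPKM + 0.5), a linear model with trended empirical Bayes moderation was fitted by limma 3.58.1 (R 4.3.3), with Benjamini-Hochberg adjustment over all 11944 loci and no covariate. The script was tested on simulated data. MYCN status came from the study and the medium from the labels, and the labels carry no replicate numbers.

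The members of the comparison and the 25 gene lists (634 of 684 genes with a locus) were chosen with earlier results of these data known. Genes named are MYCN, the 10 loci with the smallest p and the 5 non-overlapping ones with the largest fold change in each direction, up to 4 members of smallest p of each metabolism or nutrient list, and 13 nutrient genes chosen by name. Results for some genes of the rule and lists are not reported here. Others are said to be chosen after their values were seen, as are list markers named for what they mark. Positions are those of the table, counted from 1. Gene types come from GENCODE 44 on GRCh37 and sequences from RefSeq. Of 19 alternatives (pseudocount, filter, scaling, variance model, lines and loci in the fit, call threshold), 18 were run. The other one needs counts. Figures were drawn with matplotlib 3.10.9.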

Additional observations from a re-analysis of the deposited data

How the results depend on the processing

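Calls. No locus passed the call in either direction under any alternative that kept all 4 lines. Leaving out 1 line in turn gave 0 to 3 lower calls and 0 higher ones. Without CHP134 the merged locus of ARMC3 and RNA5SP304 was called lower (adjusted p = 0.0236 with limma), and without Kelly HIST1H4C, HIST1H3I and HIST1H4L were (0.0362, 0.0362 and 0.0389). In each case the lone RPMI line is assumed to vary like the DMEM lines. Loci at an unadjusted p below 0.05 numbered 185 higher and 152 lower after quantile normalization, 191 and 148 with size factors, and 196 to 474 higher and 67 to 217 lower with 1 line left out. The lower ones numbered 141 without a filter and 50 at a minimum of 5 FPKM. Loci where SK-N-AS and SY5Y were both nearer the DMEM lines numbered 692 and 597 (higher and lower) after quantile normalization and 703 and 648 with size factors.

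Directions. Of 115 loci followed through the alternatives, 11 changed sign under some alternative, 4 of them by scaling and 10 when a line was left out. Under alternatives that kept all 4 lines, 0 were called. Other loci in the text, such as LDHA, ATF4, DBH and the histone genes, were not followed in this way. After quantile normalization and with size factors, ASNS was at -0.13 and -0.08, FTH1 at -0.17 and -0.12, TXNIP at -0.10 and -0.12, and PSPH at -0.14 and -0.11. MT2A was at 0.05 with a pseudocount of 0.1. With 1 line left out the log2 fold changes ranged from -1.92 to 0.21 for PHGDH, -1.43 to 0.05 for SLC7A11, -0.97 to 0.14 for TALDO1, -0.42 to 1.53 for SLC40A1, -0.36 to 0.12 for SCD, -0.24 to 0.47 for FTH1, -0.83 to 1.05 for TXNIP, -1.59 to 1.40 for MT2A, -0.66 to 0.22 for SPTLC1 and -0.34 to 0.58 for PSPH. The cause was not tested, apart from what scaling and fewer lines imply by construction.

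No paired analysis was possible because the labels give no replicate numbers and each line is its own library. The depth is unknown, so that no counting interval can be given, and low FPKM values, on which many of the widest gaps rest, have no stated precision.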

Other observations

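A group of histone genes stood apart in CHP134 alone. HIST1H4C was at 1.16 FPKM in CHP134 against 2382 in Kelly, 2004 in BE(2)-C and 1576 in SK-N-DZ, HIST1H3I at 0.351 against 903, 831 and 747, and HIST1H4L at 0.905 against 1139, 665 and 595. SK-N-AS and SY5Y had 366 to 2007 FPKM of these 3 genes. Replication-dependent histone genes are near-identical copies whose reads may be assigned to one another. Cell cycle genes as a list had a median log2 difference of 0.20 between CHP134 and Kelly, against 0.02 for all loci. CHP134 was the higher line at 15 of these 24 loci (62.5%, against 50.8% of all loci). Conversely, the merged locus of ARMC3 and RNA5SP304 was at 25291 FPKM in CHP134, 7652 in BE(2)-C and 5937 in SK-N-DZ but 0.229 in Kelly, 0.812 in SK-N-AS and 0.0876 in SY5Y. These genes were chosen after their values were seen, and no explanation was tested.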
